A study of Mus musculus with 15 samples.

Results

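The comparison described here is that of mouse dental mesenchymal cells (mDMCs) cultured for 48 h with mDMCs cultured for 24 h. The members are the 3 libraries of each time, named by the sample labels as day 1 and day 2 of culture, 6 of the 15 libraries of the series, and all 12089 rows of the deposited expression table were compared between them. The mDMCs came from the molar mesenchyme of ICR mouse embryos, which was freed from the epithelium with enzymes, dissociated, passed through a sieve and grown as a monolayer in serum-containing medium. No transgene, deletion or drug distinguished the groups, and all cultured libraries shared the strain, the tissue and the medium. The other libraries are freshly isolated mDMCs (0 h, 3 libraries), mDMCs cultured for 12 h (2 libraries) and for 36 h (3 libraries), and 1 library of intact dental mesenchyme.

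In the developing molar, signals pass back and forth between the epithelium and the underlying mesenchyme, which descends from the cranial neural crest. At the stage used, the mesenchyme carries the capacity to instruct tooth formation. It expresses transcription factors of the Msx, Pax, Lhx and Dlx families together with ligands of the BMP, FGF and Wnt pathways. In the study, cells from either culture time were combined with dental epithelium to ask whether they still formed a tooth. The question addressed by the 24 h and 48 h libraries is therefore how expression changed over that interval. No library was made from recombined cells.

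Each row of the table is an Ensembl transcript with a whole-number normalised score in every library. The median score was 721 and the largest was 127101 in each library, and the totals lay between 21357605 and 21365980, so the libraries had been brought to the same distribution and the sequencing depth cannot be read from the table. A score ranks a gene within a library, and 17 rows had the identical score in all 6 libraries. Among these rows are some of the most abundant genes, such as Vim, which encodes the mesenchymal filament protein vimentin and stood at 70528 in all 6 libraries. Changes at the top of the scale are thus hidden. The correlation of log2 scores across rows, which are not independent replicates, was 0.971 to 0.984 among the 24 h libraries, 0.977 to 0.987 among the 48 h libraries and 0.942 to 0.97 between the times. Replicates 1 and 2 at 36 h differed by about what sampling noise would give, 1.13 times that noise if a score of 1 were a read, against 2.1 to 4.89 times for every other pair within a time, and they were counted as 1 sample.

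Between 24 h and 48 h, 1285 rows rose and 1229 fell (limma over all mDMC libraries, replicate numbers not used, two-sided, Benjamini-Hochberg adjusted p below 0.05). Together these are 20.8% of the rows, 10.6% higher and 10.2% lower, and the median log2 change of all rows was -0.01. The counts were 850 higher and 813 lower without 48 h replicate 1, 805 lower without 24 h replicate 2, and 2128 and 2187 with libraries weighted by their quality. The changes were mostly small. By the threshold that the study used, an unadjusted p below 0.05 with a change of more than 2-fold, 328 rows were higher (2.71%) and 282 were lower (2.33%), 5.05% in all. In 43.5% of the rows the 24 h and 48 h libraries did not overlap. Read against these shares, 3 gene groups stood out by their counts. Most genes of cholesterol and fatty acid synthesis (26 of 32) and of DNA replication (28 of 40) fell, and 15 of 26 p53 target genes rose. Of the odontogenic transcription factors, 0 of 25 passed the test. With the replicate number as a block in the 6 libraries, 3 were lower (12% against 12.9% of all rows in that fit). The block over 14 libraries, here and below, also kept replicates 1 and 2 at 36 h as separate samples. It gave 2 lower, and the separate samples without the block gave 1.

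The 12 dental mesenchyme markers had a summed score of 151346 to 182461 at 24 h and 135855 to 143155 at 48 h. Of their changes 11 were negative, 1 was called lower (8.33% against 10.2% of all rows), and 3 were lower with the replicate number as a block in the 6 libraries (25% against 12.9% of all rows in that fit). Markers of other cell types were present at lower summed scores. The 6 pericyte markers with a value, of 7 listed, were the highest of these, with sums of 7437 to 9630 at 24 h and 10431 to 11888 at 48 h, 2 of them higher (33.3% against 10.6% of all rows) and 1 lower (16.7% against 10.2%) by the test. The lower call was lost without 24 h replicate 1, 24 h replicate 3 or 48 h replicate 2. In the 6 libraries with the block, 3 pericyte markers were higher (50% against 12.9% of all rows in that fit) and 0 lower. The 5 cartilage markers with a value summed to 3434 to 4877 and then 2243 to 3860, the 6 skeletal muscle markers to 589 to 3248 and 1214 to 2547, and the 4 neuronal and Schwann cell markers to 1148 to 2607 and 542 to 1842, with 0 called in these 3 lists (limma) and 1 cartilage marker lower at an unadjusted p below 0.05. With the block in the 6 libraries, 2 of 4 neuronal and Schwann cell markers (50%) and 1 of 5 cartilage markers (20%) were lower. So were 4 of 9 epithelial markers (44.4%), against 12.9% of all rows in that fit. In the fit over all mDMC libraries, 0 epithelial markers were called. The 9 epithelial markers with a value summed to 1088 to 2245 at 24 h and 400 to 1339 at 48 h, and the 6 leukocyte markers to 588 to 920 and 517 to 950, with 1 leukocyte marker called higher and 1 lower (16.7% each). Both of these calls were lost without 24 h replicate 2 or 48 h replicate 1, and the higher one also without 24 h replicate 3 or 48 h replicate 3. The 10 endothelial markers summed to 2046 to 3702 and 2029 to 3592, with Cldn5, a tight junction gene of endothelium, at 0 in all 6 libraries. Of these 10, 3 fell (30% against 10.2% of all rows) and 0 rose, namely Cdh5, Pecam1 and Emcn, with log2 changes of -1.30, -1.22 and -1.10 (limma adjusted p = 0.0222, 0.0204 and 0.0294). Each of the 3 calls was lost without any of 3 or 4 single libraries, the number lower being 0 without 48 h replicate 2 and 1 without 24 h replicate 2, 24 h replicate 3 or 48 h replicate 1, and 0 in the fit of the 6 libraries only. In turn, 1 endothelial marker was higher with the block in the 6 libraries (10% against 12.9% of all rows in that fit). The number higher was also 1 with both 36 h libraries as separate samples, with or without the block, and with library weights. It was 1 as well without 24 h replicate 1 or 48 h replicate 3. Fitting the 6 libraries with their replicate numbers as a block also ended the call of Cdh5 (limma adjusted p = 0.0887). The 9 red cell markers summed to 302 to 758 at 24 h and 52 to 168 at 48 h, against 98239 to 151173 at 0 h, and 3 of them fell (33.3% against 10.2% of all rows). A smaller share of a cell type and less RNA per cell cannot be told apart in such bulk libraries, and the part of minor cell types in the results below was not tested.

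**Figure D1:**
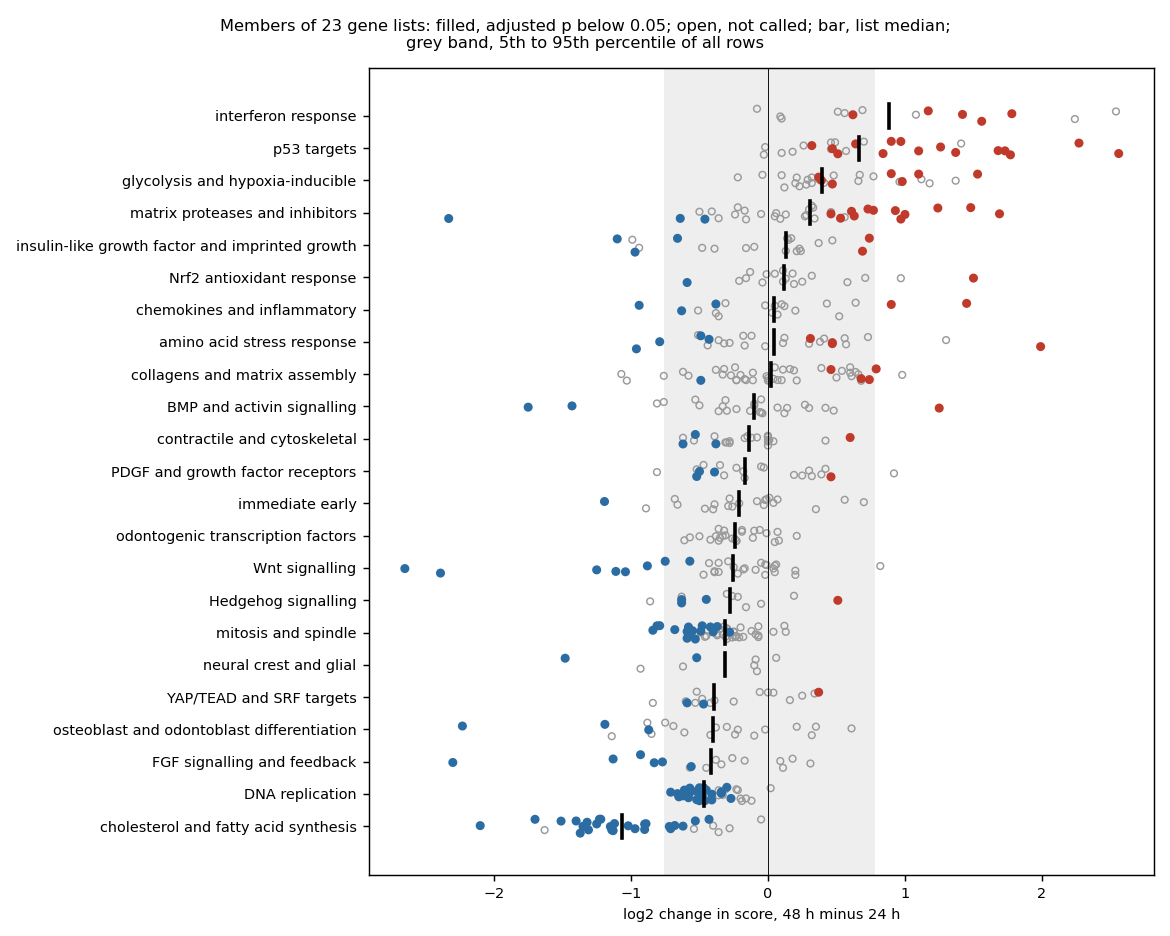
Log2 change in score from 24 h to 48 h (horizontal axis) for each gene of 23 lists (vertical axis). Filled points passed an adjusted p of 0.05 (red higher, blue lower at 48 h), open points did not, the black bar is the list median and the grey band spans the 5th to 95th percentile of all rows, -0.75 to 0.77. The medians run from 0.885 for interferon response genes to -1.07 for cholesterol and fatty acid synthesis genes.

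Of 28 transcription factors that mark odontogenic mesenchyme, 25 had a value, and 0 passed the adjusted threshold in either direction (limma), with 3 lower and 0 higher at an unadjusted p below 0.05. Their median log2 change was -0.24, with 21 negative and 4 positive values, against -0.01 over all rows. Other fits gave 1 to 3 lower, namely 1 without 48 h replicate 3, 1 in the 6 libraries only, 1 with both 36 h libraries as separate samples, 2 with library weights and 3 with the block in the 6 libraries. Msx1, a homeobox factor needed for molar development (chr5:37820485-37824583, minus strand, 2 exons, GRCm38), had scores of 3355, 3165 and 3545 at 24 h and 3238, 3770 and 3545 at 48 h. The times overlapped, the log2 change was 0.07 and its 95% interval ran from -0.12 to 0.25 (adjusted p = 0.616).

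Pax9, a paired-box factor required for tooth development past the bud, scored 903, 1130 and 1301 at 24 h and 619, 1056 and 1023 at 48 h. The groups overlapped, with a log2 change of -0.33 and an interval from -0.84 to 0.18 (limma adjusted p = 0.345). Lhx6, a LIM homeobox factor of the oral mesenchyme, scored 1663, 1592 and 1668 at 24 h and 1268, 1272 and 1437 at 48 h. All 48 h values of Lhx6 were below all 24 h values, and the log2 change was -0.31 (limma adjusted p = 0.0751). With the replicate number as a block in the 6 libraries it passed (limma adjusted p = 0.0328), as it did in the 6 libraries without the block (adjusted p = 0.0335).

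Dlx1 and Dlx2, paired distal-less factors of the jaw mesenchyme, changed by -0.57 and -0.50 (limma adjusted p = 0.107 and 0.279). Dlx1 scored 3858, 4750 and 5769 at 24 h and 2294, 2891 and 4892 at 48 h, so that 1 library at 48 h stood within the 24 h range. With the replicate block, Dlx1 also passed (adjusted p = 0.031 in the 6 libraries). Without 48 h replicate 3 it passed as well, with a log2 change of -0.88 (adjusted p = 0.00837).

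Across the whole time course, most of the loss in this group came before 24 h. The mean log2 score of the 25 factors was 10.04 to 10.47 in the 0 h libraries, 9.54 to 9.94 at 12 h, 8.97 to 9.42 at 24 h, 8.6 to 8.72 at 36 h and 8.78 to 9.04 at 48 h. The 48 h range overlapped the 24 h range and lay above that of 36 h. Between libraries with the same replicate number, the mean was lower at 48 h in each pair, from 8.97 to 8.78, from 9.14 to 9.03 and from 9.42 to 9.04. Pax9, for example, stood at 3850, 4049 and 5959 at 0 h, which is above every 24 h and 48 h library.

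Some genes of the neural crest and of mineralising mesenchyme fell. Pdgfra, the receptor for platelet-derived growth factor in crest-derived mesenchyme, scored 3367, 3595 and 4048 at 24 h and 2544, 2485 and 2608 at 48 h. It fell by 0.52 on the log2 scale (limma adjusted p = 0.00148). Ngfr, the nerve growth factor receptor of neural crest cells (chr11:95568818-95587735, minus strand), scored 61, 49 and 64 at 24 h and 18, 21 and 21 at 48 h. The groups were clearly apart, and Ngfr fell by 1.48 (limma adjusted p = 0.00114). Its main loss was earlier, from 1839, 2032 and 1828 at 0 h to 72 and 115 at 12 h. Of the 8 neural crest and glial genes with a value, of 14 listed, these 2 fell (25% against 10.2% of all rows) and 0 rose (0 higher also at an unadjusted p below 0.05), with a median of -0.31. The number lower was 1 without rows under 10 ppm of a library's total score in any of the 6 libraries. It was 3 in the 6 libraries with or without the block (37.5% with it, against 12.9% of all rows in that fit).

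Alpl, the alkaline phosphatase of mineralising cells (chr4:137741733-137796384, minus strand, 12 exons), scored 302, 169 and 176 at 24 h and 65, 27 and 47 at 48 h. Every 48 h library was below every 24 h library, a fall of 2.23 on the log2 scale with a standard error of 0.31 (limma adjusted p = 0.00077). A larger loss came earlier, from 2288, 1988 and 2008 at 0 h to 442 and 401 at 12 h. Omd, the matrix protein osteomodulin, fell by 0.87, from a mean of 814 to 441. Sp7, the osteoblast and odontoblast factor osterix, scored 332, 392 and 805 and then 172, 175 and 293. Sp7 fell by 1.19 (limma adjusted p = 0.0223), and its call was lost without 24 h replicate 3 or 48 h replicate 1 or 2, where adjusted p was 0.0693 to 0.083 and the log2 change -1.07 to -0.8. These 3 were the called members of the 20 osteoblast and odontoblast genes with a value, 15% lower against 10.2% of all rows. The share was thus near that of the table in this fit, and 0 rose (0 also at an unadjusted p below 0.05). The median log2 change was -0.40, with 16 negative and 4 positive values. The number lower was 2 in the 6 libraries only and 5 with the block in them (25% against 12.9% of all rows in that fit). It was 4 with the block over 14 libraries, and 1 without rows under 10 ppm in any of the 6 libraries. Runx2, an early factor of the same lineage, scored 474, 517 and 725 and then 394, 418 and 452. Its groups did not overlap and its log2 change was -0.42 (limma adjusted p = 0.41).

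**Figure D2:**
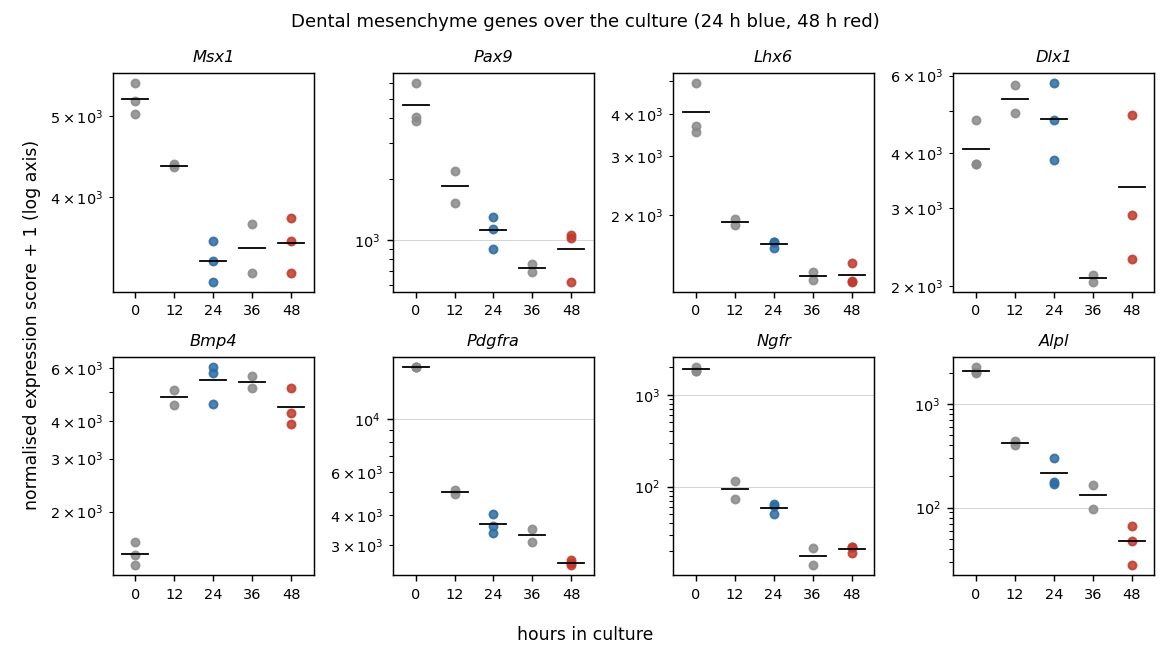
Normalised expression score plus 1 (log axis) in each mDMC library against hours in culture for 8 genes, with bars at the means, 24 h in blue and 48 h in red, and replicates 1 and 2 at 36 h shown as their mean. Msx1 overlaps between 24 h and 48 h, whereas Pdgfra, Ngfr and Alpl do not.

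Among the signalling pathways, Wnt and FGF genes that changed were lower at 48 h, while the share of BMP genes called was below that of the table. Of 31 Wnt genes with a value, 8 fell (25.8% against 10.2% of all rows) and 0 rose (0 also at an unadjusted p below 0.05), with a median log2 change of -0.26. The number lower was 5 when only the 6 libraries were fitted and 3 when rows under 10 ppm of a library's total score in any of the 6 libraries were left out. Dkk1, a secreted inhibitor of Wnt receptors (chr19:30545863-30549665, minus strand, 4 exons), scored 119, 58 and 183 at 24 h and 14, 8 and 38 at 48 h. It fell by 2.65 (limma adjusted p = 0.00407), and the groups did not overlap. Rspo1, a secreted enhancer of Wnt signalling, scored 51, 46 and 73 and then 7, 11 and 12, a fall of 2.39 (limma adjusted p = 0.000546). At 0 h Rspo1 had stood at 268, 378 and 415. Both ligand-level regulators, an inhibitor and an enhancer, were thus lower.

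Nkd1, an intracellular feedback inhibitor induced by Wnt signalling, fell by 1.25 from a mean of 175 to 71.7. Wif1, a secreted Wnt inhibitor, fell by 1.11 and the ligand Wnt5b by 1.04. Wif1 had already dropped before 24 h, from 843, 1419 and 1265 at 0 h to 75, 74 and 108. The ligand Wnt5a, which is expressed in dental mesenchyme, scored 4997, 5835 and 5479 at 24 h and 3833, 4927 and 4651 at 48 h. The Wnt5a groups did not overlap, and the log2 change was -0.29 (limma adjusted p = 0.183). With the replicate block in the 6 libraries it passed (adjusted p = 0.0346).

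Of 16 FGF pathway genes with a value, of 19 listed, 6 fell (37.5% against 10.2%) and 0 rose (0 also at an unadjusted p below 0.05), with a median of -0.42. With the 6 libraries alone, or with the block in them, 1 member was higher. Spry1 and Spry2 encode Sprouty proteins, which are induced by FGF signalling and restrain it. Spry1 scored 1150, 1031 and 878 at 24 h and 363, 446 and 617 at 48 h, a fall of 1.13 (limma adjusted p = 0.00825), and Spry2 fell by 0.77. The receptor Fgfr3 fell by 0.93, from 453, 338 and 419 to 218, 210 and 200, and the receptor-like Fgfrl1 by 0.83. The ligand Fgf3 stood at 4, 11 and 23 and then at 0, 2 and 3, near the bottom of the scale. Its fall of 2.3 (limma adjusted p = 0.0377) was lost without 24 h replicate 2 or 3 or 48 h replicate 1 or 2 (adjusted p = 0.0598 to 0.137, log2 change -2.5 to -1.7), and the log2 change was -2.89 without 24 h replicate 1. Fgf10, a mesenchymal FGF ligand, scored 974, 1153 and 1032 and then 1088, 1237 and 1039, with a log2 change of 0.09 (limma adjusted p = 0.59).

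Of 26 BMP and activin genes with a value, 2 fell (7.69% against 10.2% of all rows) and 1 rose (3.85% against 10.6%), and the median change was -0.10. Bmp2, an inducer of bone and tooth mineralisation, scored 582, 565 and 573 at 24 h and 171, 228 and 245 at 48 h. It fell by 1.43 (limma adjusted p = 0.000852), and the within-time spread was far smaller than the difference. Bmp3, a ligand that counteracts other BMPs, fell by 1.75, from a mean of 131 to 38.0. Grem1, a secreted BMP antagonist, scored 13634, 13266 and 12464 and then 36335, 23160 and 36335, a rise of 1.25 (limma adjusted p = 0.00189). Bmp4, the mesenchymal ligand that acts with Msx1, scored 5772, 6078 and 4573 and then 3906, 5154 and 4272, with overlapping groups and a log2 change of -0.30 (limma adjusted p = 0.124). Without 24 h replicate 3, Bmp4 passed, with a log2 change of -0.42 (limma adjusted p = 0.0464). The BMP genes lower numbered 4 in the 6 libraries only and 5 with the block in them (19.2% against 12.9% of all rows in that fit). They numbered 3 with the block over 14 libraries, and 0 without rows under 10 ppm in any of the 6 libraries.

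Of the Hedgehog pathway genes, those that fell encode receptors and the transducer. Of 12 genes, 3 fell (25% against 10.2% of all rows) and 1 rose (8.33% against 10.6%), with a median of -0.28. Smo, the membrane protein that transduces the signal, scored 3886, 3803 and 3803 and then 2446, 3079 and 2940, a fall of 0.45 (limma adjusted p = 0.00556). The co-receptor Cdon fell by 0.63, from 1002, 776 and 765 to 525, 583 and 519 (limma adjusted p = 0.00779). Ptch1, the receptor and itself a target of the pathway, scored 245, 235 and 239 and then 161, 168 and 137, a fall of 0.63 (limma adjusted p = 0.0304). Its main loss was earlier, from 2235, 3681 and 3848 at 0 h. Ptch1 lost its call without any 24 h library, or without 48 h replicate 1 or 3 (adjusted p = 0.0647 to 0.0955). Disp1, which releases the ligand, rose by 0.51, a call lost without any of 5 libraries, all but 24 h replicate 3 (adjusted p = 0.0791 to 0.16), and also with the block in the 6 libraries (adjusted p = 0.0522), though not with the block over 14 libraries.

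Of the 23 gene lists plotted, that of cholesterol and fatty acid synthesis had the largest share of called members and the largest median change, although the 9 red cell markers had a median of -1.45. These enzymes build sterols from acetyl units, and many are known targets of the sterol-sensing factors SREBP. Of 32 genes, all with a value, 26 fell and 0 rose (0 also at an unadjusted p below 0.05), 81.2% lower against 10.2% of all rows. All 32 changes were negative, the median was -1.07 and 17 were lower by more than 2-fold with an unadjusted p below 0.05. The number lower was 24 to 26 when each library was left out in turn.

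Idi1, the isomerase that makes the 5-carbon building block of sterols (chr13:8885501-8892451, plus strand, 5 exons), scored 6633, 5908 and 5785 at 24 h and 1035, 1334 and 2088 at 48 h. It fell by 2.1 with a standard error of 0.23 (limma adjusted p = 0.000253), 4.28-fold lower. Hmgcs1, the synthase that supplies the pathway with HMG-CoA, scored 10718, 8295 and 9415 and then 2385, 2896 and 3517, a fall of 1.7 (limma adjusted p = 0.000763). For both enzymes every 48 h library was far below every 24 h library. Fdps, which joins the building blocks to farnesyl diphosphate, fell by 1.51, from 7604, 6704 and 6575 to 1628, 2548 and 3520. Insig1, the sterol-dependent retention factor of SREBP, fell by 1.4, and Cyp51, a demethylase late in the pathway, by 1.37.

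Over the time course this group peaked at 12 h. The mean log2 score of the 32 genes was 10.74 to 11.06 at 0 h, 11.78 to 11.79 at 12 h, 11.31 to 11.7 at 24 h, 10.93 to 11.15 at 36 h and 10.33 to 10.69 at 48 h. The 48 h libraries thus lay below those of every earlier time, the freshly isolated cells included. The promoter of Hmgcs1 carries the letters of the classical sterol regulatory element and is shown for that reason, with the letters TCACNCCAC in capitals. The motif was added after the values were seen. The sequence is that of RefSeq, assembly GRCm38.p6, chr13:119690201-119690350, plus strand, 5′ to 3′.
Hmgcs1 promoter: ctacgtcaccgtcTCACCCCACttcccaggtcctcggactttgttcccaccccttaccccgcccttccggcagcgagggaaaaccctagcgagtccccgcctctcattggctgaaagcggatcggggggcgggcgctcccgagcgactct
Within 250 bases before the start on either strand, these letters occurred in 1 of the 22 list genes with a window (4.55%) and in 1.25% of the 9279 genes of the table with a window.

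**Figure D3:**
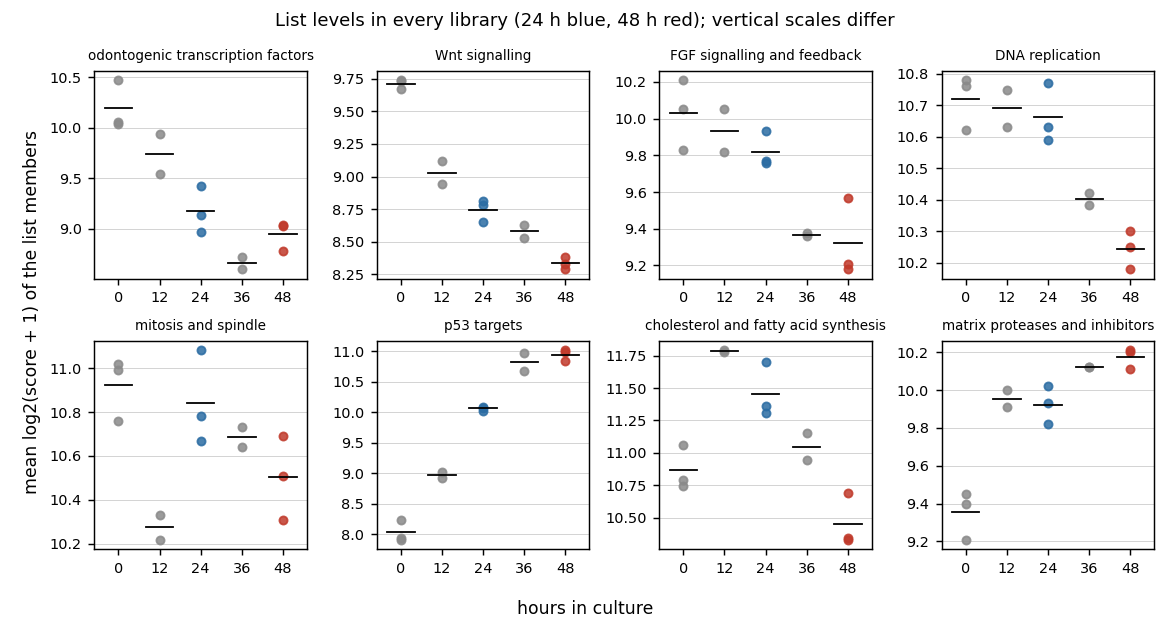
Mean log2(score + 1) of the members of 8 gene lists in each mDMC library (vertical axis, a separate scale per panel) against hours in culture, with bars at the means, 24 h in blue and 48 h in red, and replicates 1 and 2 at 36 h shown as their mean. Cholesterol and fatty acid synthesis genes peak at 12 h and are lowest at 48 h, p53 targets are higher at 48 h than at 24 h, and the odontogenic factors overlap between 24 h and 48 h, although each 48 h library is below the 24 h library of the same number.

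Genes of the replication machinery fell together, each by a small amount. Of 40 DNA replication genes with a value, 28 fell and 0 rose (0 also at an unadjusted p below 0.05), 70% lower against 10.2% of all rows, with a median of -0.47. None was lower by more than 2-fold. With each library left out in turn the number lower was 19 to 24. Uhrf1, which maintains DNA methylation at the fork, scored 4247, 4375 and 5074 at 24 h and 2614, 2954 and 3116 at 48 h, a fall of 0.66 (limma adjusted p = 0.000915). Chaf1a, a histone chaperone of replicating chromatin, fell by 0.62, from 2244, 2184 and 2503 to 1452, 1619 and 1437. Lig1, the ligase that joins Okazaki fragments, fell by 0.71. The polymerase subunit Pold1 and the helicase accessory factor Gins1 each fell by 0.65.

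Of 47 mitosis and spindle genes, 16 fell (34% against 10.2% of all rows) and 0 rose (0 also at an unadjusted p below 0.05), with a median of -0.31. The number lower was 10 without 24 h replicate 2 and 15 in the 6 libraries only. It was 26 with the block in them (55.3% against 12.9% of all rows in that fit). With the block over 14 libraries it was 18, and with libraries weighted by their quality 35. Kif11, a motor that separates the spindle poles, scored 2631, 3558 and 3207 and then 1663, 1974 and 1712, a fall of 0.81 (limma adjusted p = 0.00143). Cdk1, the kinase that drives entry into mitosis, fell by 0.68, from 3391, 4631 and 3681 to 1958, 2763 and 2577 (limma adjusted p = 0.0112). Spc24, a kinetochore subunit, fell by 0.79 and the survivin gene Birc5 by 0.59. Mki67, the proliferation marker, fell by 0.84, but lost its call without 24 h replicate 2 or 3 or 48 h replicate 1 or 3 (limma adjusted p = 0.0564 to 0.0904, log2 change -0.84 to -0.71).

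Some members of both groups hold promoter motifs known from cell cycle genes. Mcm6, a helicase subunit, and Top2a, the mitotic topoisomerase, were chosen for display because their windows hold several such motifs, after their values were seen. Capitals mark E2F sites (TTTGGCGC) in Mcm6. In Top2a they mark CCAAT boxes and a CHR element (TTTGAA), which read ATTGG and TTCAAA where they lie on the opposite strand. Both windows are RefSeq sequence of GRCm38.p6, 5′ to 3′ on the minus strand, at chr1:128359706-128359855 and chr11:99024190-99024339.
Mcm6 promoter: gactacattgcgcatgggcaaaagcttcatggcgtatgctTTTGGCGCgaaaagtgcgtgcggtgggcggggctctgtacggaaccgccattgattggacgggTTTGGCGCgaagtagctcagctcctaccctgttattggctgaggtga
Top2a promoter: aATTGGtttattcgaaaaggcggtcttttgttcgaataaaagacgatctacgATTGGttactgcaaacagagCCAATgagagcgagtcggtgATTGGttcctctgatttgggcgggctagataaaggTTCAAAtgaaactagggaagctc
An E2F site (TTTGGCGC or TTTCCCGC, either strand, within 250 bases before the start) occurred in 6 of 32 DNA replication genes with a window (18.8%) and in 2.99% of the 9279 table genes. The CHR letters TTTGAA occurred in 16 of 40 mitosis genes (40%) against 12.7%, and CCAAT in 29 of 40 (72.5%) against 41.2%. These matches describe the windows and were not tied to the change of each gene.

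Targets of p53, the transcription factor that answers DNA damage and other stress, were called higher more often than the rows of the table. Of 26 genes, 15 rose and 0 fell (0 also at an unadjusted p below 0.05), 57.7% higher against 10.6% of all rows, with a median of 0.67. In 22 of the 26 the 24 h and 48 h libraries did not overlap, all in the upward direction, where 43.5% of all rows did not overlap in either direction. The number higher was 10 without 24 h replicate 3 and at most 13 without any other single library. The list holds genes of cell cycle arrest, apoptosis and p53 feedback.

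Mdm2, the ubiquitin ligase that p53 induces and that in turn removes p53, scored 4240, 4209 and 3947 at 24 h and 13266, 11567 and 15054 at 48 h. It rose by 1.68 on the log2 scale (limma adjusted p = 0.000156), 3.2-fold. Eda2r, a death-domain receptor, scored 1677, 1549 and 1422 and then 5721, 4869 and 4869, a rise of 1.73 (limma adjusted p = 0.000138). The 3 libraries of each time were tight for both genes. Pmaip1, the pro-apoptotic protein Noxa, scored 293, 314 and 397 and then 1815, 1343 and 1687, a rise of 2.27 (limma adjusted p = 0.000205). Trp53inp1, a p53-induced stress protein, rose by 1.77, with 48 h replicate 1 at 10725 and the other 48 h libraries at 5120 and 5677. Gdf15, a stress-induced cytokine, went from 21, 17 and 7 to 59, 84 and 126, low on the scale. Its rise of 2.56 (limma adjusted p = 0.0177) was lost without 24 h replicate 3 or 48 h replicate 3 (adjusted p = 0.0639 to 0.0677, log2 change 2.12 to 2.28).

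The list mean of the p53 targets was higher at each time up to 36 h. Their mean log2 score was 7.91 to 8.23 at 0 h, 8.92 to 9.01 at 12 h, 10.02 to 10.09 at 24 h, 10.67 to 10.97 at 36 h and 10.84 to 11.01 at 48 h. The 36 h and 48 h ranges overlapped.

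**Figure D4:**
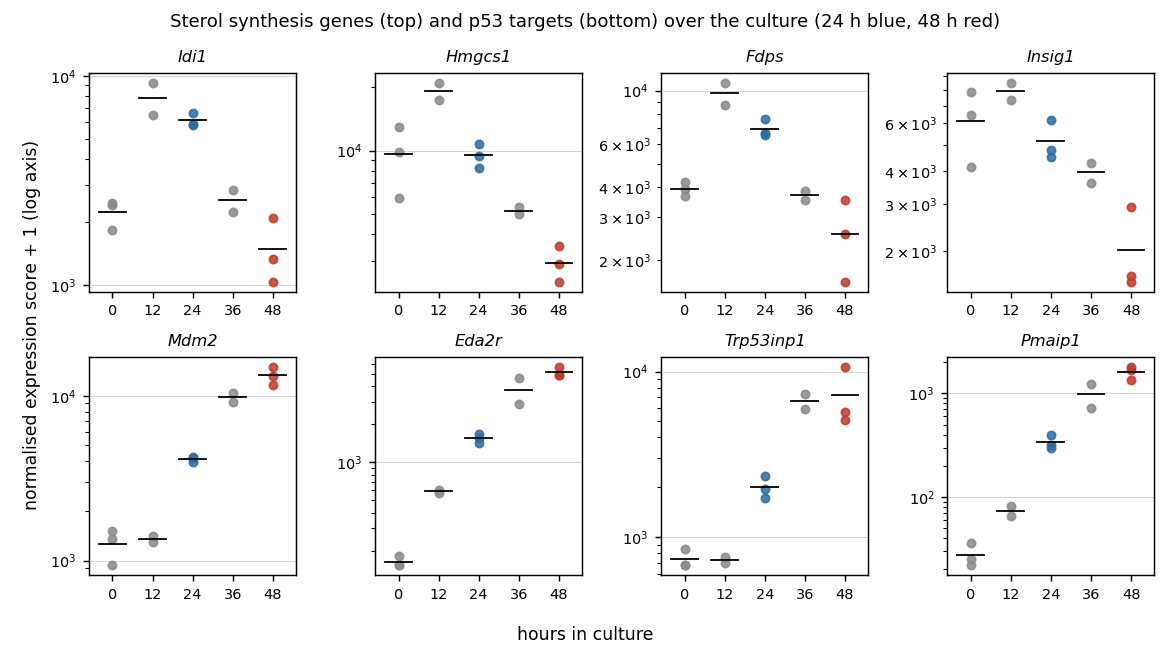
Normalised expression score plus 1 (log axis, a separate scale per panel) in each mDMC library against hours in culture for 4 sterol genes (top) and 4 p53 targets (bottom), with bars at the means, 24 h in blue and 48 h in red, and replicates 1 and 2 at 36 h shown as their mean. The 48 h libraries lie below all 24 h libraries for each sterol gene and above them for each p53 target.

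More matrix proteases and inhibitors rose than the share of the table. Of 35 genes, 12 rose (34.3% against 10.6% of all rows) and 3 fell (8.57% against 10.2%), with a median of 0.30. The number higher was 7 without 24 h replicate 1, without 24 h replicate 2 or without 48 h replicate 1, and the number lower was 1 without 24 h replicate 1 or 48 h replicate 1. Serpine2, an inhibitor of thrombin and plasminogen activators, scored 886, 970 and 1136 and then 3009, 2958 and 3693, a rise of 1.69 (limma adjusted p = 0.000368). The lysosomal protease Ctsl rose by 1 on the log2 scale, from 4948, 4163 and 4014 to 11557, 7489 and 7696 (limma adjusted p = 0.00128). Mmp9, the gelatinase made by osteoclasts and migrating cells, scored 161, 271 and 311 and then 36, 39 and 72, a fall of 2.33 (limma adjusted p = 0.000785). AP-1 letters (TGACTCA, either strand) occurred within 250 bases before the start in 5 of the 23 list genes with a window (21.7%) and in 3.76% of the table genes.

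Of 24 contractile genes, 3 fell (12.5% against 10.2% of all rows) and 1 rose (4.17% against 10.6%), 16.7% called in all against 20.8%, with a median of -0.14. Cald1, the actin-binding protein caldesmon, scored 31728, 40603 and 28694 and then 50368 in each 48 h library, a rise of 0.6 (limma adjusted p = 0.0065). Myh10, a non-muscle myosin, fell by 0.62 from 19210, 17307 and 15574 to 11028, 13262 and 9770 (limma adjusted p = 0.0101), and Smtn, or smoothelin, fell by 0.53. Several members of this list sit at the top of the score scale, where no change could be seen. The mean log2 score of the list was 10.19 to 10.28 at 0 h, 13.32 to 13.69 at 24 h and 13.19 to 13.6 at 48 h.

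Among immediate early genes, the first to answer serum and growth factors, the number called depended on the libraries fitted and on the block. Of 21 with a value, 1 fell (4.76% against 10.2%) and 0 rose (limma, 0 higher also at an unadjusted p below 0.05), with a median of -0.21. The member was Egr2, a zinc-finger factor, with scores of 961, 741 and 837 at 24 h and 308, 331 and 483 at 48 h. Its fall of 1.2 (limma adjusted p = 0.0355) was lost without any single library except 48 h replicate 3 (adjusted p = 0.0648 to 0.116), although the groups did not overlap. Egr1 changed by -0.66 (adjusted p = 0.282, or 0.0362 with the block in the 6 libraries), Fos by -0.46 (adjusted p = 0.586) and Jund by 0.07 (adjusted p = 0.815). In the 6 libraries, 5 immediate early genes were lower with the block (23.8% against 12.9% of all rows in that fit) and 3 without it, 2 were lower with the block over 14 libraries, and 1 was higher in the 6 libraries with or without the block. The AP-1 letters TGACTCA occurred in 0 of the 17 list genes with a window, against 3.76% of the table genes.

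Smaller groups held single strong changes. Ddit3, the stress factor CHOP, scored 544, 517 and 545 and then 3118, 1734 and 1791, a rise of 1.99 (limma adjusted p = 0.00101), while Mthfd2 and Psat1, enzymes of one-carbon and serine synthesis, fell by 0.96 and 0.79. Of the 26 amino acid stress genes, 4 rose (15.4% against 10.6% of all rows) and 4 fell (15.4% against 10.2%). The number higher was 2 without 24 h replicate 2 or 3 or 48 h replicate 1 or 3. With the block in the 6 libraries it was 7 (26.9% against 12.9% of all rows in that fit). The number lower was 2 without 24 h replicate 1 or 2 or 48 h replicate 1. Of 20 IGF and imprinted growth genes, 3 fell (15% against 10.2%) and 2 rose (10% against 10.6%), the number higher being 0 without 24 h replicate 2 or 3 or 48 h replicate 1. The number lower was 5 with both 36 h libraries as separate samples, with or without the block, and 5 with library weights. Igfbp4, an IGF-binding protein, fell by 0.97 from 3470, 3116 and 3731 to 1696, 1807 and 1739 (limma adjusted p = 0.000205), and Dlk1, an imprinted membrane protein of immature mesenchyme, fell by 1.1.

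Interferon response genes had the highest list median, 0.89, over the 14 of 27 with a value, of which 5 rose (35.7% against 10.6% of all rows) and 0 fell (0 also at an unadjusted p below 0.05). The number was 3 in the fit of the 6 libraries only, and 3 without rows under 10 ppm in any of them. Tap1, a peptide transporter of antigen presentation, scored 278, 327 and 352 and then 1155, 865 and 819, a rise of 1.56 (limma adjusted p = 0.00199). Ddx58, the RNA sensor RIG-I, rose by 1.78 to 939, 374 and 352, with 48 h replicate 1 above the other 48 h libraries. The mean log2 score of the list was 9.46 in that replicate against 8.16 and 8.19 in the others.

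Glycolysis and hypoxia-inducible genes gave 7 higher (25% against 10.6% of all rows) and 0 lower of 28 (0 lower also at an unadjusted p below 0.05), with a median of 0.40. The number depended on single libraries. It was 1 without 24 h replicate 2, 24 h replicate 3 or 48 h replicate 1, 4 without 48 h replicate 3 and 12 without 24 h replicate 1. It was 2 in the fit of the 6 libraries only and 11 with the block in them (39.3% against 12.9% of all rows in that fit). Eno2, an enolase, scored 416, 170 and 252 and then 1052, 519 and 787, a rise of 1.53 (limma adjusted p = 0.00604) that did not depend on any single library.

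The genes with the largest changes belonged to no single group. They were chosen as the 12 largest rises and 12 largest falls among named protein-coding genes that were called, did not overlap between the times and had a mean score of at least 100 in the higher group, which left 1157 higher and 1051 lower candidates. Gpnmb, a lysosomal and melanosomal glycoprotein (chr6:49036615-49058182, plus strand, 11 exons), had the highest scores among the rises, 616, 508 and 536 at 24 h and 4418, 1839 and 3012 at 48 h. It rose by 2.39 (limma adjusted p = 0.000205). Mt1, a metallothionein that binds zinc and copper, scored 26, 19 and 31 and then 254, 176 and 492, a rise of 3.44 (limma adjusted p = 0.000321). Hyal1, a lysosomal hyaluronidase, rose by 2.7, and Atp6v0e2, a subunit of the proton pump of lysosomes, by 2.38.

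All the rises but Gpnmb were low in score at 24 h, with means of 25.3 for Mt1, 42.3 for Hyal1 and 35.7 for Atp6v0e2. Grhl3, a factor of surface epithelia, went from 5, 16 and 8 to 116, 88 and 125. Its rise of 3.49 (limma adjusted p = 0.0194) was lost without 24 h replicate 1 or 3 or 48 h replicate 1 or 3 (adjusted p = 0.0525 to 0.061). Procr, the protein C receptor, rose by 2.97, with 523 in 48 h replicate 3 and 105 and 136 in the others, and by 2.26 without that library or 2.37 without 24 h replicate 1. Kcnj4, a potassium channel, rose by 2.92 and Klhdc7a by 2.83. Cox6b2, Prrg4, Nipal3 and Syt13 rose by 2.65, 2.51, 2.45 and 2.35.

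Of the falls, Acp5, the tartrate-resistant phosphatase of osteoclasts, scored 187, 168 and 134 and then 7, 36 and 19, with a log2 change of -3.17 (limma adjusted p = 0.00101), or -2.58 without 48 h replicate 1. Dio3, the enzyme that inactivates thyroid hormone, fell by 2.38, and Tril, a co-receptor of innate immunity, by 2.19, from 325, 293 and 433 to 73, 97 and 59. The haemoglobin genes Hba-a1 and Hbb-bs fell, with log2 changes of -2.81 and -2.64. Without 48 h replicate 3 these were -3.49 and -3.33, and without 48 h replicate 1 that of Hba-a1 was -2.16. Each has a close paralogue with which reads may have been shared, and their scores of 5 to 300 at 24 h and 48 h compare with the red cell sums given above. Arhgef37 and Necab2 fell by 2.69 and 2.06. Fstl4, a follistatin-like gene, fell by 2.36 (limma adjusted p = 0.0477), a call lost without 24 h replicate 2 or 3 or 48 h replicate 1 or 2 (adjusted p = 0.0773 to 0.173, log2 change -2.54 to -1.53), and the log2 change was -3.02 without 48 h replicate 3. Idi1, Dkk1, Mmp9 and Alpl, described above, make up the rest of the falls.

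**Figure D5:**
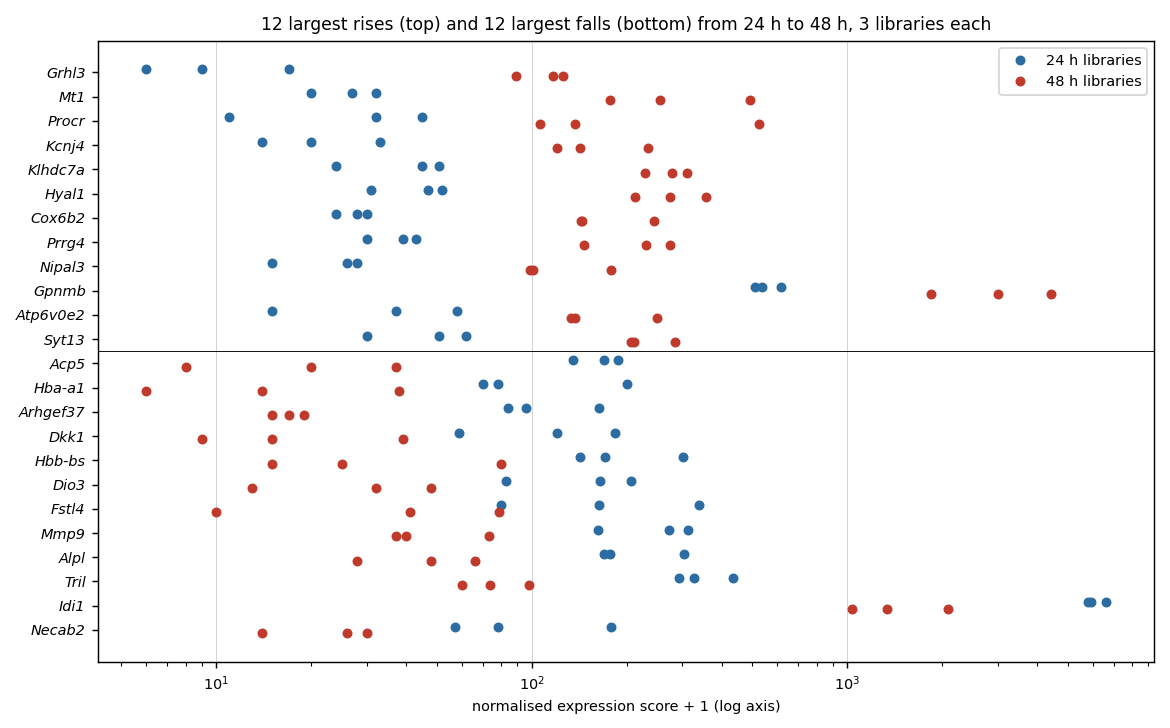
Normalised expression score plus 1 (horizontal, log axis) of the 12 largest rises and 12 largest falls in the 3 libraries at 24 h (blue) and the 3 at 48 h (red). No gene overlaps between the times, which the choice of genes required, and most scores are below 500, with Gpnmb and Idi1 higher.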

How the data were processed

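RNA of mDMCs was sequenced by the authors on TruSeq libraries. Per the labels, values were made with RSEM 1.1.21 on mm10, and the paper describes adaptor trimming, bowtie and the Ensembl mouse transcriptome, with DESeq2 for its own comparisons. The deposited table is labelled as CPM, but each column holds the same distribution of whole numbers, so the values were treated as a normalised score that the authors deposited, with no counting model, counting interval or detection limit. Depth per sample cannot be read from it. The design had foreseen CPM values on the same log2 scale.

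Of 12089 rows, 11973 matched a gene of GENCODE M21 (GRCm38). Scores were tested as log2(score + 1) with limma 3.58.1 in R 4.3.3, with a mean for each time over the 14 mDMC libraries, replicates 1 and 2 at 36 h being averaged into 1 of 13 samples, trended variances, two-sided p and Benjamini-Hochberg adjustment over all rows. A fold change on this scale understates the change of low genes. The labels do not say that libraries of a time came from separate cultures, so p-values measure the spread between libraries, which may be technical. Deviations from the time mean correlated by 0.298, 0.2 and 0.315 between 24 h and 48 h libraries with the same number, so the numbers of the labels may pair the samples. The main test did not use this pairing, which entered only in the alternatives named as a block. The text names the 12 largest rises and falls that met the rule given with them, up to 5 called members of a list by size of change, and genes that the paper discusses. The members and lists were chosen with earlier results of these data known. Fitting was tested on simulated data. Alternatives covered the pseudocount (0.1 and 10), filters of 1 and 10 ppm of the total score, scaling, the libraries fitted, the block, weights and each library left out. The tissue library was not tested. Promoter sequence came from RefSeq GRCm38.p6. The values of 1 list member are not reported here.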

Additional observations from a re-analysis of the deposited data

How the results depend on the processing

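Over 19 alternatives, 0 of the called rows changed sign. Leaving out each library in turn gave 850 to 1062 rows higher and 805 to 1002 lower, against 1285 and 1229, and by the threshold of the study 266 to 363 higher and 249 to 330 lower, against 328 and 282. The lowest counts came without 48 h replicate 1 (850 higher, 813 lower) and without 24 h replicate 2 (805 lower). Library weights gave 2128 higher and 2187 lower, an adjusted p below 0.05 with more than 2-fold change 285 and 239, and a minimum of 10 ppm of the total score in all 6 libraries 103 and 46 by the threshold of the study, with 8764 rows tested. The naming rule covers 133 genes, not all named in the report, of which 120 were called, and of those calls 77 held without each library and 43 did not. With the pairing of replicates as a block in the 6 libraries, 1556 rows were higher and 1564 lower, and 338 and 288 by the threshold of the study. The block over 14 libraries, which also kept replicates 1 and 2 at 36 h as separate samples, gave 1500 and 1444. The separate samples alone, without the block, gave 1469 and 1411. These alternatives were chosen after the data were seen. Beside the calls of Lhx6, Dlx1, Wnt5a, Egr1, Disp1 and Cdh5 given with the results, the block changed no other call of a gene that the naming rule covers and the report names. Twist2 and Jund, not called, turned sign (Twist2 -0.01 under library weights, Jund -0.01 without 24 h replicate 2 and up to 0.18 without another library). Equal score distributions hide changes of the most abundant genes and of total RNA.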
